A study of Mus musculus with 2 samples.

Results

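Monocytes and their proliferating progenitors were examined in lineage-depleted mouse bone marrow, in cells chosen by the RNA they held. A barcode was taken as monocytic when it held at least 2 UMIs of F13a1, at least 2 of Ms4a6c and at least 1 of Csf1r. A UMI, a unique molecular identifier, counts 1 captured transcript. A monocytic barcode also had to stay under set limits for genes of other cells. These were under 20 UMIs per 10000 of Elane and Prtn3 together, which encode neutrophil-type granule proteases, and under 20 per 10000 of Cd74, H2-Aa, H2-Ab1 and H2-Eb1, the MHC class II genes of dendritic and B cells. The limits were under 5 per 10000 of the macrophage complement genes C1qa, C1qb and C1qc, under 2 UMIs of the erythroid factor Klf1 and under 2 of Siglech, a plasmacytoid dendritic cell gene. Of the 23776 kept barcodes in both libraries, 739 met the rule, 291 of 11239 in the cKO library and 448 of 12537 in the WT library. Kept barcodes held at least 1000 UMIs and 500 genes and at most 10% mitochondrial UMIs.

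The cKO library came from C57BL/6 mice with a conditional knockout of Nat10, and the WT library from wild-type mice of the same strain. The product of Nat10 places N4-acetylcytidine on RNA, and the series asks about its part in keeping up and differentiating blood stem cells. Bone marrow was depleted of mature cells with biotin-labelled antibodies against lineage markers and captured with 10x Genomics 3′ chemistry, version 3.1. The series text names 5 independent WT or cKO mice, and the labels tie no cell to an animal, so each genotype was 1 library. The sources used here do not give the Cre driver, the time of deletion or the age and sex of the mice. No difference below has a replicate check, no test between genotypes was made, and each 95% interval covers counting error only.

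Monocytes arise in the marrow from granulocyte-monocyte progenitors and from monocyte-dendritic cell progenitors. The transcription factors PU.1 (Spi1), IRF8 and KLF4 drive this step, and CSF1R, the receptor for macrophage colony-stimulating factor, sustains the lineage. Granule genes such as Mpo and Elane are switched on in the progenitors and off again as monocytes mature, while Ly6C and CCR2, the chemokine receptor used to leave the marrow, mark classical monocytes.

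The monocytic cells held a median of 23276 UMIs and 5575 genes in the cKO library and 21876 UMIs and 5459.5 genes in the WT library. Their UMIs summed to 7159832 in cKO and 10800864 in WT. The libraries shared 67 barcode sequences, which 0 cKO and 2 WT monocytic cells carried. Scrublet called 6 cKO and 14 WT monocytic cells doublets (2.06% and 3.13%), and they were kept. Cells at the edge of the rule were few for F13a1, with 12 cKO and 24 WT cells at its minimum of 2 UMIs. For Csf1r, 64 cKO and 81 WT cells stood at the minimum of 1 UMI.

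Genes that the rule did not use were checked against the label. Ly6c2, the classical monocyte antigen Ly6C, was detected in 250 of 291 cKO cells (85.9%) and 424 of 448 WT cells (94.6%). Erythroid cells with at least 2 Klf1 UMIs that did not meet all the minimums for F13a1, Ms4a6c and Csf1r are called Klf1 cells below. They stand in for cells without monocyte RNA. Of the Klf1 cells, 35.3% in cKO and 61.6% in WT had a Ly6c2 UMI, at 19.1 and 46.6 CPM (UMIs of a gene scaled to the same total in every set of cells). Ccr2 was detected in 269 cKO cells (92.4%) and 408 WT cells (91.1%), against 7.04% of cKO and 9.36% of WT Klf1 cells. The Klf1 cells were the deeper, with median UMIs of 39277 in cKO and 38980.5 in WT. Irf8 was detected in 98.3% of cKO and 97.5% of WT monocytic cells. These shares, like every level of monocytic cells against other cells, describe cells chosen by RNA and were not tested.

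Among genes of mature or patrolling monocytes, some were low and others were not. Cd14, the lipopolysaccharide co-receptor, stood at 3.35 CPM in cKO and 8.52 CPM in WT monocytic cells, and Itgam, which encodes CD11b, at 10.1 and 15.4 CPM. CD11b is among the antigens that lineage cocktails usually target. Whether the depletion set which monocytes were captured was not tested. Ace, a marker of nonclassical monocytes, had 0 UMIs in cKO and 1 in WT monocytic cells, and Treml4 had 4 and 3. Cx3cr1, the fractalkine receptor, which is high on nonclassical monocytes, stood at 83.4 CPM in cKO and 95.5 CPM in WT monocytic cells, against 7.02 and 11.4 CPM in all other kept cells. The 24 genes of the nonclassical list summed to 586 CPM in cKO and 787 CPM in WT monocytic cells, against 318 and 422 CPM in the other kept cells. Cell-cycle RNA was abundant: the 54 genes of the G2/M list summed to 9986 CPM in cKO and 9919 CPM in WT monocytic cells, close to the 9950 and 9954 CPM of all other kept cells.

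Markers of several other lineages were low in most of these cells, while plasmacytoid and dendritic markers summed to more than in the other kept cells. Per 10000 UMIs, the erythroid list had a median of 6.99 in cKO and 6.73 in WT monocytic cells, with a range of 2.26 to 73.9 in cKO and 1.32 to 192 in WT. The 12 plasmacytoid markers summed to 1304 CPM in cKO and 1633 CPM in WT, against 281 and 399 CPM in the other kept cells. Most of the monocytic sum came from Runx2 (811 and 987 CPM) and Tcf4 (273 and 401 CPM). Bst2 stood at 187 and 191 CPM, against 60.7 and 63.1 CPM in the other kept cells. Cox6a2 stood at 12.3 and 6.39 CPM, against 1.67 and 3.52 CPM. Ccr9 (0.978 and 2.22 CPM) and Klk1 (1 and 0 UMIs) were near 0. Dendritic markers summed to 375 CPM in cKO and 570 CPM in WT, against 87.7 and 128 CPM in the other kept cells, and 12 of 12 measured members were below 0 in the log2 ratio of cKO over WT, as were 61.8% of all genes with at least 50 UMIs. Among them Clec9a, a receptor for dead cells on dendritic cells and their progenitors, stood at 43.9 CPM in cKO and 47.2 CPM in WT, while Xcr1 had 2 and 1 UMIs. Cells with at least 20 UMIs per 10000 of erythroid, B, T, megakaryocyte, granulocyte or stromal markers numbered 9 of 291 in cKO (3.09%) and 29 of 448 in WT (6.47%). The sums of these lists were 750 CPM in cKO and 811 CPM in WT (erythroid), 854 and 356 (B cell, where 1 cKO cell held 91.5% of the Jchain UMIs), 504 and 815 (megakaryocyte), 333 and 277 (stromal and endothelial), 99.0 and 149 (neutrophil), 56.1 and 178 (basophil and mast cell), 39.4 and 45.7 (T and NK) and 11.3 and 15.7 (eosinophil). Macrophage markers summed to 285 CPM in cKO and 238 CPM in WT, and stem cell markers to 261 and 424 CPM. At the same level of markers, 61 cKO and 154 WT cells held plasmacytoid, 2 and 9 dendritic, 0 and 6 stem cell and 0 and 0 macrophage RNA. The part of the cells with erythroid, B, T, megakaryocyte, granulocyte or stromal markers in the gene ratios below was not tested beyond leaving them out, and the cells with plasmacytoid, dendritic or stem cell markers were not left out on that ground.

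The targeted gene was lower but present. Nat10 stood at 20.3 CPM (145 UMIs) in cKO monocytic cells and 26.5 CPM (286 UMIs) in WT monocytic cells, a log2 ratio of cKO over WT of −0.38 (95% interval −0.69 to −0.09). In all other kept cells it stood at 39.1 and 47.9 CPM. Thumpd1, whose product is the adaptor that brings the enzyme to tRNA, stood at 42.2 and 38.4 CPM (0.14, −0.08 to 0.35). No source used here says whether the 3′ tags counted lie inside the deleted part of Nat10.

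Monocytic cells took a smaller share of the cKO library. They were 2.59% of its kept barcodes (exact binomial 95% interval 2.30 to 2.90) and 3.57% of those of the WT library (3.26 to 3.91), a ratio of 0.725 (0.623 to 0.842). Granule-high cells, which meet the same positive criteria but hold at least 20 UMIs per 10000 of Elane and Prtn3, were 5.98% of cKO and 9.72% of WT barcodes (ratio 0.615, 0.559 to 0.677). Mpo-high cells, with at least 20 per 10000 both of Mpo and of the protease pair but without the positive criteria, were 10.2% and 14.5% (0.701). Klf1 cells took 36.4% of cKO and 26.3% of WT barcodes, a ratio of 1.38 (1.32 to 1.45). With all barcodes of at least 2 Klf1 UMIs left out of the total, the monocytic share was 4.13% in cKO and 4.94% in WT. Its ratio was then 0.837 (0.720 to 0.972). Fewer monocytic cells, more cells of another kind and a different yield of the depletion cannot be told apart from 1 library a genotype. Nor can less RNA of the genes that chose the cells. In monocytic cells F13a1 and Csf1r had log2 ratios of cKO over WT of −0.17 and −0.38.

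The monocytic share depended on where the rule was set, as the plot of shares shows. With the protease limit at 10 per 10000 the ratio was 0.625 (0.506 to 0.769), and at 40 it was 0.777 (0.692 to 0.873). When every barcode was thinned to 4000 UMIs before the rule was applied, 62 of 8584 cKO and 116 of 8972 WT barcodes passed (ratio 0.559, 0.404 to 0.767). Of all cells that met the positive criteria, 1078 in cKO and 1889 in WT, monocytic cells made up 27.0% in cKO and 23.7% in WT (ratio 1.14, 0.979 to 1.32). Cells that met the minimums for F13a1, Ms4a6c and Csf1r were thus the smaller share in cKO (9.59% against 15.1% in WT). That share also depends on the levels of these genes in each cell. The interval for the split within this compartment includes 1.

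**Figure D1:**
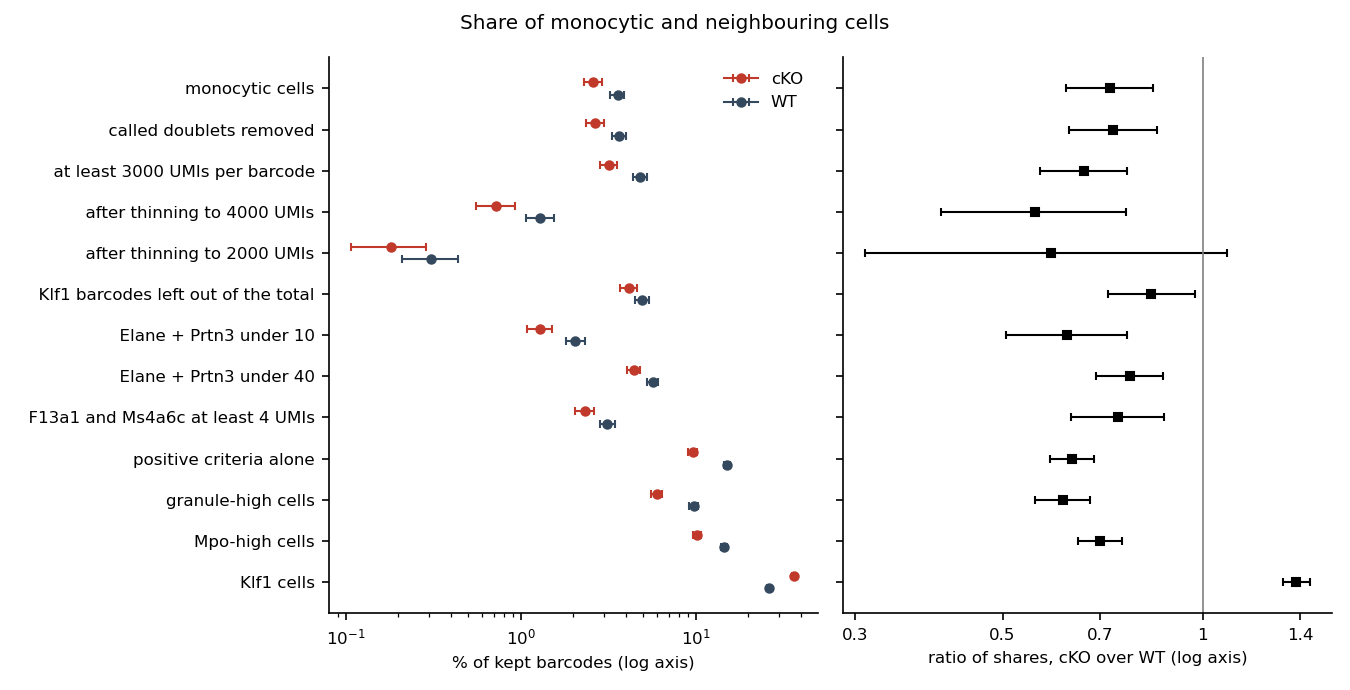
Share of kept barcodes in the cKO and WT libraries (left, log axis, exact binomial 95% intervals) and the ratio of shares, cKO over WT (right, log axis, exact conditional intervals). The upper 9 lines are the monocytic cells under the rule and its alternatives, and the ratio lies under 1 in each, between 0.559 and 0.837; Klf1 cells lie above 1, at 1.38.

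Monocytic cells formed a range by their residual granule RNA. In cKO, 57 cells held under 5 UMIs per 10000 of Elane and Prtn3, 87 held 5 to 10 and 147 held 10 to 20, and in WT the numbers were 149, 108 and 191. Klf1 cells, which should lack both proteases, held 146 CPM of Elane and 204 CPM of Prtn3 in cKO and 249 and 256 CPM in WT, so the lowest of these groups lies near the level of free RNA. In both libraries Mpo climbed with the proteases. It stood at 208, 408 and 895 CPM in the 3 cKO groups and 218, 460 and 1143 CPM in the WT groups, where Klf1 cells held 197 CPM in cKO and 336 CPM in WT. Ctsg, another granule protease, stood at 150, 278 and 625 CPM in cKO and 81.7, 211 and 463 CPM in WT.

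Ccr2, S100a4 and Klf4 ran the other way in both libraries. Ccr2 stood at 373, 264 and 245 CPM in cKO and 484, 324 and 290 CPM in WT, from the least to the most granule RNA. S100a4, a calcium-binding protein of motile myeloid cells, stood at 582, 333 and 194 CPM in cKO and 734, 424 and 301 CPM in WT. Klf4 stood at 266, 178 and 125 CPM in cKO and 447, 279 and 231 CPM in WT. The G2/M list summed to 11814, 10443 and 9284 CPM in cKO and 10868, 10839 and 8945 CPM in WT. Flt3, a progenitor receptor, stood at 240 CPM in cKO and 244 CPM in WT under 2 per 10000. At 10 to 20 per 10000 Flt3 stood at 126 and 144 CPM. Whether this range is one of maturation was not tested. Irf8 was highest in the middle group, with 762, 955 and 682 CPM in cKO and 924, 1000 and 843 CPM in WT. Ly6c2 showed no such fall, with 566, 605 and 556 CPM in cKO and 891, 843 and 1087 CPM in WT. Just outside the rule, at 20 to 40 per 10000, Ly6c2 stood at 759 CPM in cKO and 1539 CPM in WT and Mpo at 2007 and 2393 CPM, so the limit cuts a continuous range.

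**Figure D2:**
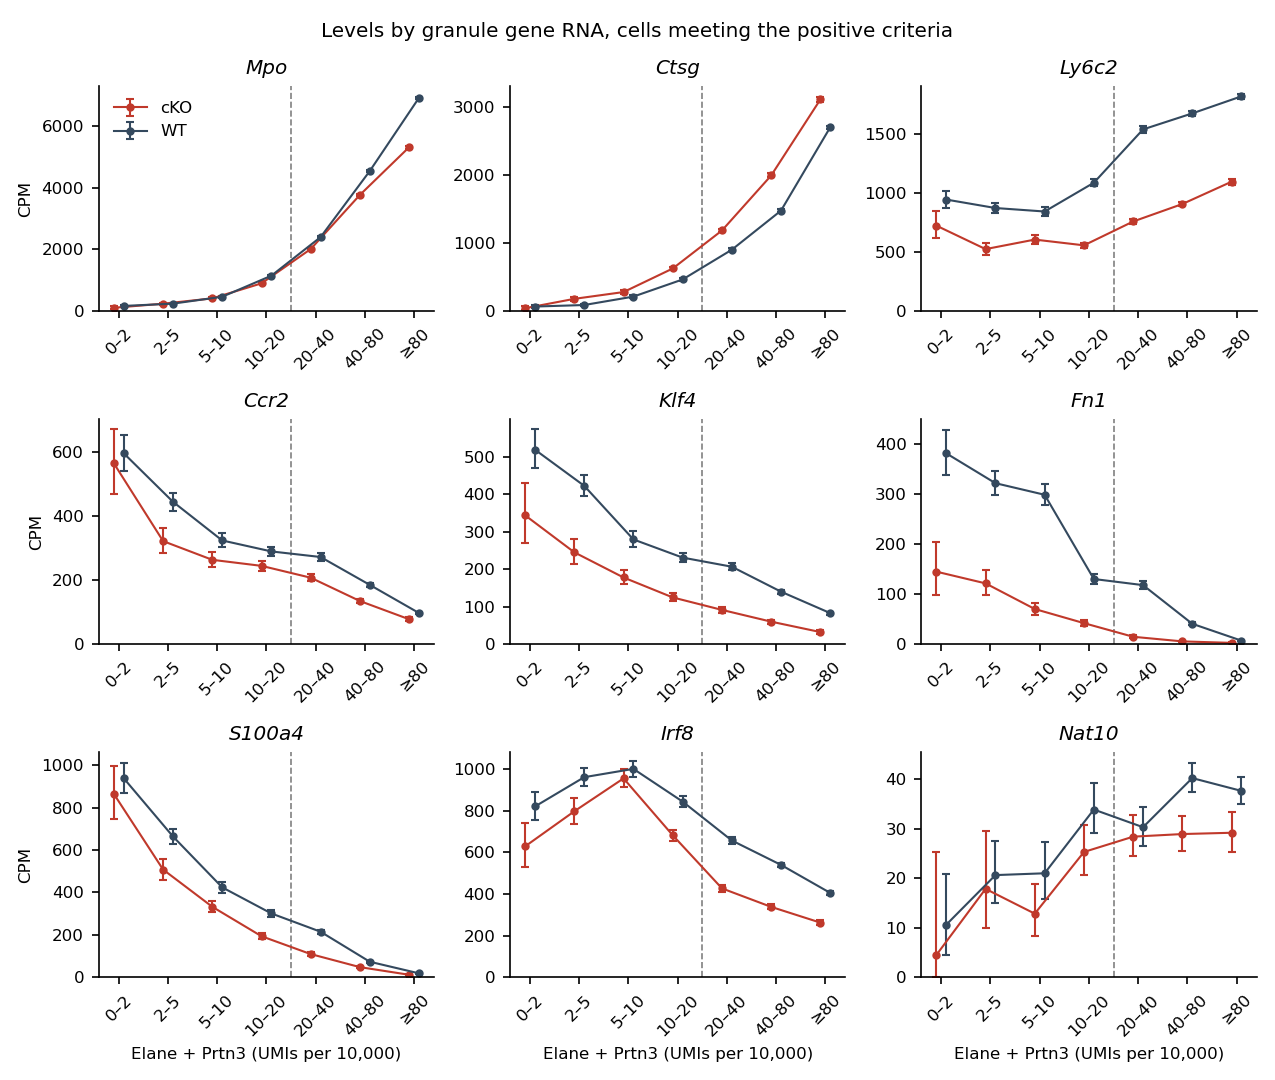
Level in CPM (y axis, exact Poisson 95% intervals) of 9 genes in cKO and WT cells that meet the positive criteria, grouped by Elane and Prtn3 UMIs per 10000 (x axis); monocytic cells lie left of the dashed line. Ly6c2, Klf4 and Fn1 are lower in cKO in every group, and Mpo and Ctsg climb with granule RNA in both libraries.

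Genes whose levels differed most between the ends of this range ran the same way in cKO and WT because the rule required it. Among the 15 genes higher in cells with the least granule RNA, chosen by their levels in both libraries, were Pid1 (log2 difference of levels, under 5 over 10 to 20, of 2.30 in cKO and 2.15 in WT), Grap2, an adaptor of receptor signalling (2.88 and 2.27), Ccl6, a chemokine (2.31 and 2.15), Lsp1, a leukocyte actin-binding protein (1.68 and 1.68), Itgb2, the β2 integrin chain (1.63 and 1.65), and Clec9a (1.83 and 1.65). Those higher with more granule RNA included Mpo and Ctsg, with Slpi, a protease inhibitor (−1.35 and −1.78), Hspd1, a mitochondrial chaperonin (−1.18 and −0.96), and the nucleolar proteins Mybbp1a and Lyar (−0.88 each in cKO). Dendritic markers summed to 644 CPM in cKO and 951 CPM in WT under 5 and to 263 and 357 CPM at 10 to 20. Dendritic markers were joined by plasmacytoid markers, at 2022 and 2483 CPM under 5 and 949 and 1127 CPM at 10 to 20. Their part in the range was not tested.

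States were scored after thinning each cell to 4000 UMIs, which left 290 cKO and 445 WT cells. Mpo-bearing cells, with at least 2 Mpo UMIs, were 41.4% in cKO (35.7 to 47.3) and 40.7% in WT (36.1 to 45.4), against 8.59% of cKO and 15.8% of WT Klf1 cells. Ly6c2-bearing cells were 51.0% in cKO (45.1 to 56.9) and 66.1% in WT (61.5 to 70.5), a ratio of 0.772 (0.630 to 0.944), against 0.829% and 2.46% of Klf1 cells. Without thinning, Ly6c2-bearing cells were 73.5% in cKO and 89.7% in WT. Cells with RNA of at least 2 nonclassical markers were 13.8% in cKO and 19.1% in WT (0.722, 0.483 to 1.06), or 77.7% and 81.5% without thinning, and the granule-high cells had nearly as many, 12.2% and 14.7%. The fixed rule for cycling cells took in 100% of both libraries and of the Klf1 cells, and so separated no cells. A stricter level of G2/M RNA, chosen after seeing this, was met by 45.2% of cKO and 41.6% of WT cells.

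**Figure D3:**
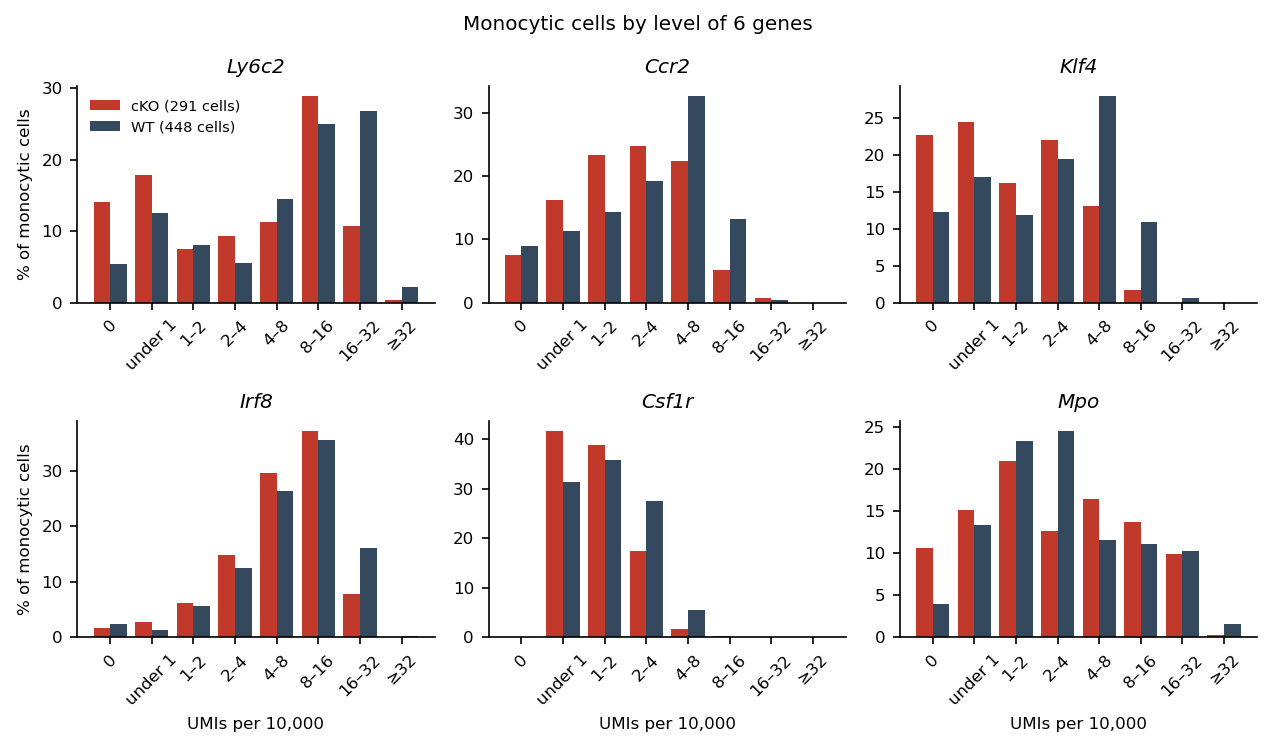
Percent of the 291 cKO and 448 WT monocytic cells (y axis) by UMIs per 10000 of 6 genes (x axis). Bars for Ly6c2 and Klf4 sit further left in cKO, where 14.1% and 22.7% of cells had no UMI of the gene, against 5.36% and 12.3% in WT; Csf1r has no cells at 0 because the rule requires it.

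A gene was counted when its monocytic level averaged 20 CPM or more over the libraries with 100 or more UMIs in all, and 6869 genes were. Of these 143 (2.08%) were at least 1.5-fold higher and 414 (6.03%) at least 1.5-fold lower in cKO. The excess of lower genes rested on scaling by total UMIs: the median gene stood at −0.09, and trimmed mean of M-values scaling, which moves all ratios by 0.11, gave 346 higher and 244 lower. A ratio between −0.11 and 0 changes sign under that scaling. Ratios were lower in longer genes: the median was 0.24 for genes spanning under 3 kb and −0.44 for those over 300 kb, and Spearman's rho over the 6855 genes with a known span was −0.56, across genes that are not independent. Gene lists were read against a second background, the 11516 genes with at least 50 UMIs, of which 61.8% were below 0, 10.5% at least 1.5-fold lower and 3.25% at least 1.5-fold higher, with a median of −0.11.

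Genes of monocyte identity were lower in cKO. Of the 37 measured members, 32 were below 0 and 16 at least 1.5-fold lower, with a median log2 ratio of −0.48. The shares over all genes with at least 50 UMIs were 61.8% and 10.5%. The list summed to 5015 CPM in cKO and 7320 CPM in WT. By granule RNA, from least to most, its median was −0.27, −0.48 and −0.47, where the median of all genes was −0.05, −0.07 and −0.10. In the group with the least granule RNA 24 of 32 members were below 0, as were 54.5% of all genes. That group held 57 cKO and 149 WT cells.

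Ly6c2 stood at 572 CPM (4093 UMIs) in cKO and 976 CPM (10539 UMIs) in WT monocytic cells, a log2 ratio of −0.77 (−0.82 to −0.72). In all other kept cells it stood at 168 and 484 CPM, so it was lower in cKO outside monocytic cells as well. Its levels per 10000 UMIs had a median of 4.78 in cKO cells and 8.81 in WT cells, with overlapping ranges from 0 to 32.8 in cKO and 0 to 44.8 in WT. Ly6c2 has a near-identical neighbour, Ly6c1, counted here with 1 UMI in cKO and 2 in WT, and how reads shared by both were split is not given. Ly6a2, of the same family, stood at 27.5 CPM in cKO and 92.0 CPM in WT (−1.74, −1.97 to −1.52). Ccr2 stood at 269 and 351 CPM (−0.38, −0.46 to −0.30).

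Fn1, which encodes fibronectin, was among the 10 lowest ratios, with 62.4 CPM in cKO and 226 CPM in WT (−1.86, −2.01 to −1.71). It was detected in 80 of 291 cKO cells and 215 of 448 WT cells (27.5% and 48.0%), so it came from part of the cells in each library. In the 3 groups by granule RNA, Fn1 was lower in cKO in each, with ratios of −1.41, −2.08 and −1.63. Granule-high cells had a ratio of −2.46.

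Further identity genes were lower as well. Lyz2, lysozyme, stood at 569 CPM in cKO and 872 CPM in WT (−0.62, −0.67 to −0.56), but in the cells with the least granule RNA it ran the other way, at 1165 CPM in cKO and 757 CPM in WT, and 1 cKO cell held 8.47% of all its cKO UMIs. Psap, the precursor of lysosomal saposins, stood at 665 and 1038 CPM (−0.64). Mpeg1, a pore-forming protein of phagocytes, stood at 136 and 224 CPM (−0.72), and Cybb, the catalytic chain of the NADPH oxidase, at 80.7 and 131 CPM (−0.70). Ly86, which encodes the partner of a Toll-like receptor homologue, was alike at 241 and 240 CPM (0.01, −0.08 to 0.09), and Tmem176a and Tmem176b had ratios of −0.12 and −0.19. Vcan (1.46) and Chil3 (2.05) were higher in cKO, on 66 and 224 cKO UMIs of which single cells held 39.4% and 35.3%.

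Transcription factors of the lineage split by gene. Klf4 stood at 161 CPM in cKO and 301 CPM in WT (−0.91, −1.01 to −0.81), with no UMI in 66 of 291 cKO and 55 of 448 WT cells. Irf8 stood at 771 and 903 CPM (−0.23, −0.28 to −0.18) and Cebpa, the factor of the granulocyte-monocyte progenitor, at 21.1 and 24.4 CPM (−0.21, −0.51 to 0.08). Spi1 stood at 295 and 278 CPM (0.09, 0.01 to 0.17) and Cebpb at 49.0 and 48.6 CPM (0.01), while 38 of the 41 measured factors were below 0. Of all genes with at least 50 UMIs, 61.8% were below 0 and 10.5% at least 1.5-fold lower. The list median was −0.40, and 9 factors were at least 1.5-fold lower, among them Irf4 (2.79 and 9.07 CPM, −1.67), Batf3 (1.82 and 6.02 CPM, −1.69) and Nr4a3 (1.54 and 6.30 CPM, −1.98), all on few UMIs. Factors with more RNA that were also lower included Zeb2 (912 and 1319 CPM, −0.53), Mef2c (904 and 1265 CPM, −0.48) and Runx1 (1058 and 1424 CPM, −0.43).

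Of the receptors for growth factors and cytokines, 23 of 27 were below 0, with a median of −0.37, and 4 were at least 1.5-fold lower. Of all genes with at least 50 UMIs, 61.8% were below 0 and 10.5% at least 1.5-fold lower, so the 4 receptors lie near that share. Il1r2, the decoy receptor of interleukin 1, stood at 7.96 CPM in cKO and 26.1 CPM in WT (−1.70, −2.15 to −1.30). Csf3r, the receptor for granulocyte colony-stimulating factor, stood at 14.9 and 25.6 CPM (−0.77), Il6ra at 114 and 164 CPM (−0.52) and Csf2ra, the receptor chain for granulocyte-macrophage colony-stimulating factor, at 51.4 and 69.7 CPM (−0.44). Csf1r, which chose the cells, stood at 121 and 157 CPM (−0.38), and Flt3, a receptor of early and dendritic progenitors, at 154 and 182 CPM (−0.24). The receptors for type I interferon were nearly alike, Ifnar1 at 42.3 and 44.3 CPM (−0.07) and Ifnar2 at 221 and 220 CPM (0.01, −0.09 to 0.10). Adhesion and chemokine receptor genes had 19 of 20 members below 0 and a median of −0.37, with Itgb2 at 30.4 and 51.6 CPM (−0.76), Cd44 at 535 and 825 CPM (−0.62) and the very late antigen chain Itga4 at 169 and 245 CPM (−0.53).

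Effector genes gave a mixed picture. In the lysosome and phagocytosis list 33 of 38 members were below 0 (median −0.35), among them Grn, progranulin, at 117 CPM in cKO and 208 CPM in WT (−0.82), while Ctsz, a cathepsin, was higher at 350 and 259 CPM (0.44, 0.36 to 0.51). The NADPH oxidase subunits diverged: Cybb was lower, Ncf1 and Cyba had ratios of −0.07 and 0.07, and Ncf4 stood at 68.3 and 55.2 CPM (0.31, 0.13 to 0.48). Pattern recognition genes had a median of −0.14, close to the background, with 11 of 29 at least 1.5-fold lower. Nlrp3, an inflammasome sensor, stood at 31.0 and 65.5 CPM (−1.08), Syk, the kinase below many of these receptors, at 127 and 209 CPM (−0.72), and Pycard, the inflammasome adaptor, at 315 and 272 CPM (0.21). S100 genes were below 0 in 8 of 8, among them S100a4 at 291 and 448 CPM (−0.62) and S100a13 at 97.3 and 98.6 CPM (−0.02). Fc receptor and paired receptor genes were below 0 in 8 of 9 (−0.24), with Pirb, an inhibitory receptor, at 22.6 and 43.9 CPM (−0.95) and Fcer1g, the shared signalling chain, at 563 and 587 CPM (−0.06). Nonclassical monocyte genes were below 0 in 12 of 14 (−0.30), Ms4a genes in 4 of 5 (−0.19) and Ly6 genes in 4 of 6 (−0.37). Of all genes with at least 50 UMIs, 61.8% were below 0 and 10.5% at least 1.5-fold lower. The counts for Ms4a and Ly6 genes are too small to set apart from that share.

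Immediate early genes, which respond within minutes to stimulation, had the lowest median of the 28 gene lists, −0.81. Of 32 members, 29 were below 0 and 20 at least 1.5-fold lower, against backgrounds of 61.8% and 10.5%. Nr4a1, required for nonclassical monocytes, stood at 9.22 CPM in cKO and 32.1 CPM in WT (−1.79, −2.20 to −1.42). Klf2 stood at 39.9 and 133 CPM (−1.73), Atf3 at 44.1 and 129 CPM (−1.54), Fosb at 74.7 and 223 CPM (−1.58) and Fos at 279 and 602 CPM (−1.11, −1.18 to −1.04). Fos was lower in cKO in each group by granule RNA, with ratios of −1.01, −1.01 and −1.14. Dusp6, a feedback phosphatase of the ERK pathway, was higher at 14.4 and 8.33 CPM (0.79, 0.37 to 1.21), and Myc stood at 43.7 and 35.9 CPM (0.28). The list's genes are short, with a median span of 4.69 kb, while tested genes spanning 3 to 10 kb had a median ratio of 0.21. The same list had medians of −0.33 in granule-high, −0.26 in Mpo-high and −0.25 in Klf1 cells.

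Inflammatory mediators had 20 of 22 measured members below 0, a median of −0.54 and 10 at least 1.5-fold lower. Of all genes with at least 50 UMIs, 61.8% were below 0 and 10.5% at least 1.5-fold lower. Nrg1, neuregulin 1, headed the 10 lowest ratios described at the end, with 15.5 CPM (111 UMIs) in cKO and 114 CPM (1235 UMIs) in WT (−2.88, −3.18 to −2.60). It was detected in 36 of 291 cKO monocytic cells, and its ratio in all other kept cells was −2.77, so the difference was not confined to monocytic cells. The chemokines Ccl3 (59.9 and 91.3 CPM, −0.61) and Ccl4 (70.7 and 103 CPM, −0.54) were lower, while Tnf had a ratio of 0.47 (0.16 to 0.78). Cd83, an activation marker, stood at 1.96 and 14.1 CPM (−2.80, −3.75 to −2.06). Nfkbia, the inhibitor of NF-kB that NF-kB itself induces, stood at 105 and 89.1 CPM (0.24), and Nfkb1 at 279 and 358 CPM (−0.36). Below 0 were 16 of the 22 NF-kB feedback genes (median −0.31), against 61.8% of all genes with at least 50 UMIs.

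Interferon response genes were lower in 56 of 58 measured members, with a median of −0.67 and 35 at least 1.5-fold lower. The backgrounds were the same 61.8% and 10.5%. Along the pathway, whose receptors were nearly alike, Stat2 stood at 21.1 CPM in cKO and 26.8 CPM in WT and Irf9 at 26.3 and 46.7 CPM. Both belong to the factor that binds the interferon-stimulated response element (ISRE). Irf9 had 25.7 CPM in cKO and 36.1 CPM in WT Klf1 cells. Irf7, which amplifies the response, had 30 UMIs in cKO and 119 in WT. Per UMI it was no higher than in Klf1 cells (6.65 and 11.1 CPM). It was higher than in granule-high cells (1.04 CPM in cKO and 1.82 CPM in WT) and Mpo-high cells (0.853 and 1.95 CPM). The part of free RNA in the monocytic level of Irf7 was not tested. Among effectors, Ifi27l2a stood at 57.1 and 126 CPM (−1.14, −1.31 to −0.98), Ifi211 at 17.6 and 37.2 CPM (−1.08), Slfn5 at 5.59 and 14.4 CPM (−1.35, −1.90 to −0.85) and Mx1, an antiviral GTPase, at 9.64 and 20.6 CPM (−1.09). Members near 0 included Bst2 at 187 and 191 CPM (−0.03), Ly6e at 1078 and 1146 CPM (−0.09) and Ifitm2 at 347 and 342 CPM (0.02). The list median was −0.87, −0.35 and −0.62 in the 3 groups by granule RNA, where the median of all genes was −0.05, −0.07 and −0.10. It was −0.34 in granule-high, −0.46 in Mpo-high and −0.54 in Klf1 cells, so the list was lower in all 4 sets of cells.

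The promoters of 4 of these genes are shown because they are the lowest members with at least 100 UMIs that hold an ISRE. Promoters on 1 chromosome were left out of that choice. The motif searched was GAAA, any 2 bases and GAAA, or on the other strand TTTC, any 2 bases and TTTC, in the 250 bases before the start, from RefSeq in build GRCm38.p6, and the motif was chosen after the list's values were seen. Capitals mark the match. Slfn5 lies on chromosome 11, plus strand, chr11:82951852-82952101. Ifi205 (minus strand, chr1:174031756-174032005) and Ifi211 (minus strand, chr1:173913047-173913296) are neighbouring copies of 1 family whose reads may be shared, as may those of Phf11b (minus strand, chr14:59341331-59341580).
Slfn5: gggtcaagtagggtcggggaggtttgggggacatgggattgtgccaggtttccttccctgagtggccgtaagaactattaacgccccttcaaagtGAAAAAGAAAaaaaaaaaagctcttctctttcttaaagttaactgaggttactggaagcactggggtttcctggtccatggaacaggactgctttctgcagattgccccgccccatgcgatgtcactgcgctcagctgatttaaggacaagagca
Ifi205: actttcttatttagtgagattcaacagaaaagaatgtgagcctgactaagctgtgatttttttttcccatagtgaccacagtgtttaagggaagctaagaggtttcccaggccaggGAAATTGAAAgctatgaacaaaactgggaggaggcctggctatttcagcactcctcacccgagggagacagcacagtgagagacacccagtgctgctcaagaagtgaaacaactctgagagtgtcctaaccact
Phf11b: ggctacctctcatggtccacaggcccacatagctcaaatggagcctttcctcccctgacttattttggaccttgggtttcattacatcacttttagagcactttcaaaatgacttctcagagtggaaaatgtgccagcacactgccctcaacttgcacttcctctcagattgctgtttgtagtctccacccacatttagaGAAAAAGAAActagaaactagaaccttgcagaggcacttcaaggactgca
Ifi211: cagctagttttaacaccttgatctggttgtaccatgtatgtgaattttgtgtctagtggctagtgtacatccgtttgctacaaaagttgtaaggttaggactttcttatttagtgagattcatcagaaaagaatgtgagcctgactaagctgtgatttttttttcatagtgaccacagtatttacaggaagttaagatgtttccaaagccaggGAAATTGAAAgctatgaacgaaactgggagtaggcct
Of the 58 measured interferon genes 47 had a promoter in the table, and 24 of these (51.1%) held the motif, against 3.46% of the 27025 genes with a promoter and 3.23% of the tested genes. The match begins 155 bases before the start in Slfn5, 134 in Ifi205, 50 in Phf11b and 37 in Ifi211. Members with the motif had a median ratio of −0.61 and members without it −0.67, and 23 of 24 and 23 of 23 were below 0. For the PU.1 motif, searched as GAGGAAGT and ACTTCCTC, 2 of 30 monocyte identity promoters (6.67%) held a match, against 2.79% of all. A match is a description of these bases and not a site shown to be bound.

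Lists for protein synthesis and energy were higher in cKO. Mitochondrial ribosomal proteins were above 0 in 75 of 77 (median 0.45, 18 at least 1.5-fold higher against a background of 3.25%), oxidative phosphorylation in 75 of 77 (0.38) and cytosolic ribosomal proteins in 81 of 81 (0.34). Cytosolic ribosomal proteins summed to 216462 CPM in cKO and 170208 CPM in WT monocytic cells. Ribosomal protein genes have many near-identical pseudogenes, and how shared reads were assigned is not stated. Mrps11, of the small mitochondrial subunit, stood at 43.3 and 22.9 CPM (0.92, 0.68 to 1.17), Cyc1, of respiratory complex III, at 171 and 105 CPM (0.70), and Rplp0 at 3475 and 2399.8 CPM (0.53). Ribosome biogenesis genes were above 0 in 50 of 58 (0.24), with Nhp2, of the pseudouridylation complex, at 277 and 169 CPM (0.72, 0.63 to 0.81). Chaperones were above 0 in 24 of 26 (0.43), with Hspd1 at 430 and 279 CPM (0.63), Hsph1 at 74.0 and 41.8 CPM (0.82) and Hsp90ab1 at 2990 and 2133 CPM (0.48). Of all genes with at least 50 UMIs, 38.2% were above 0 and 3.25% at least 1.5-fold higher. At least 1.5-fold higher were 4 oxidative phosphorylation, 2 cytosolic ribosomal protein, 5 ribosome biogenesis and 7 chaperone genes. The first 2 of these counts lie near that share. All 5 lists for ribosomes, respiration and chaperones had medians above 0 in granule-high, Mpo-high and Klf1 cells too, between 0.19 and 0.36. They hold short genes, with median spans from 3.24 to 13.5 kb.

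Cell-cycle lists stayed near 0. S phase genes were above 0 in 24 of 46 (median 0.01) and G2/M genes in 26 of 54 (−0.01), and none of their genes was past 1.5-fold. Of all genes with at least 50 UMIs, 38.2% were above 0. Under trimmed mean scaling the medians were 0.12 and 0.10. Histones had a median of 0.24, with H2ac24 at 641 CPM in cKO and 378 CPM in WT (0.76) and the linker histone H1f0 at 20.1 and 41.8 CPM (−1.05). Glycolysis genes had a median of 0.07, with Ldha at 404 and 252 CPM (0.68) and Tpi1 at 232 and 151 CPM (0.62). Targets of p53 had a median of −0.07 and cholesterol genes of −0.11, both near that of all genes, with Bax at 123 and 79.3 CPM (0.63) and Cdkn1a at 30.3 and 42.3 CPM (−0.48).

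**Figure D4:**
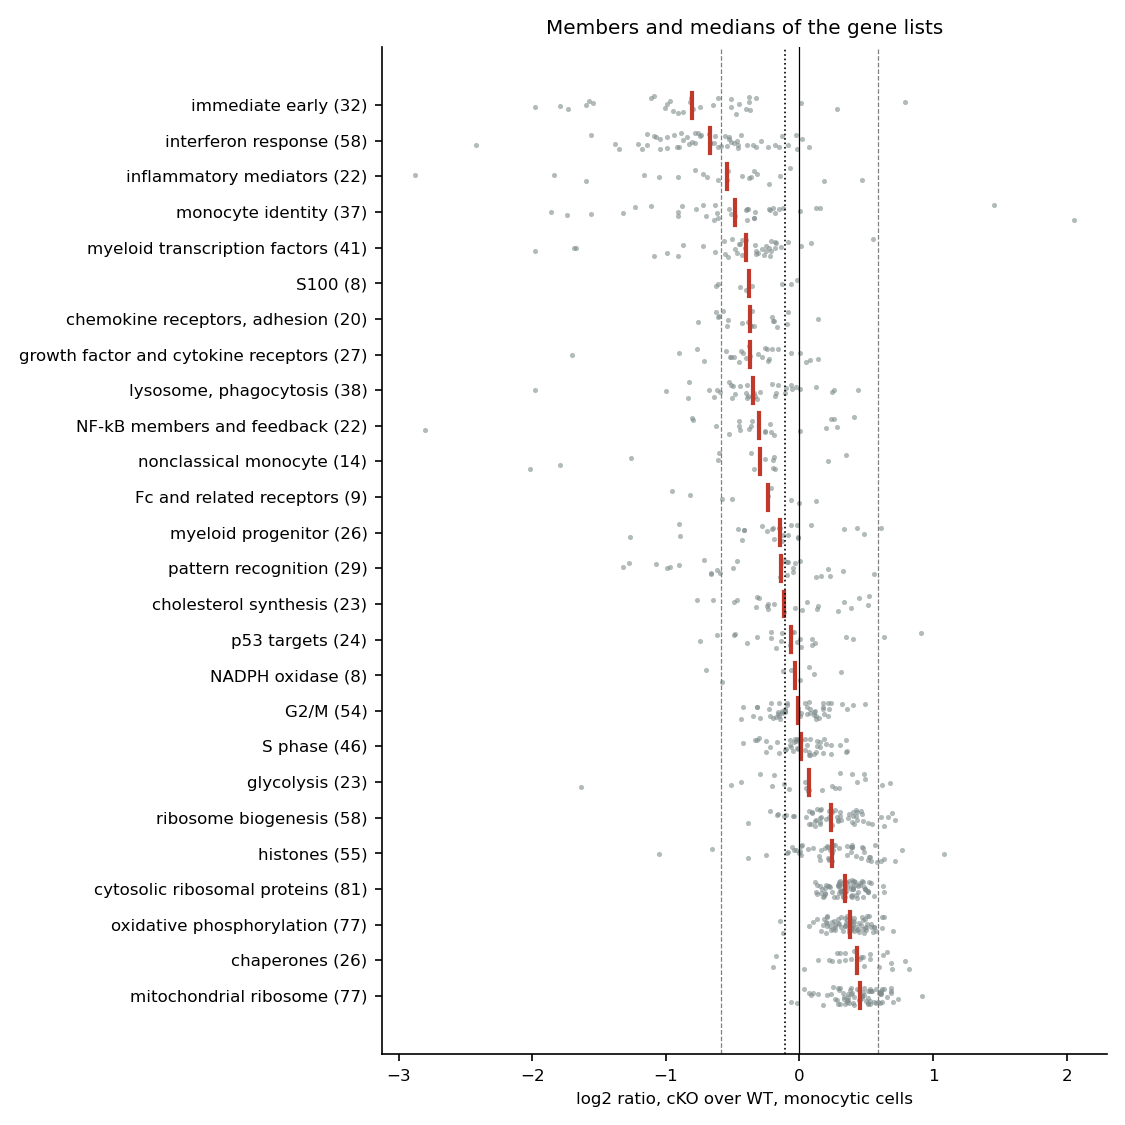
Log2 ratio of cKO over WT in monocytic cells (x axis) for each list member with at least 50 UMIs (points; number in brackets) and the list median (red bar). Dashed lines mark 1.5-fold either way, the dotted line the median of all genes, −0.11; immediate early and interferon response genes lie furthest left, at −0.81 and −0.67.

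Progenitor genes diverged. Of the 26 measured, 21 were below 0, with a median of −0.15, against 61.8% of all genes with at least 50 UMIs. Meis1, a stem cell homeobox factor, stood at 51.7 CPM in cKO and 125 CPM in WT (−1.27, −1.44 to −1.10), and Kit, the stem cell factor receptor, at 24.3 and 45.5 CPM (−0.90). Ctsg was higher, at 456 and 300 CPM (0.61, 0.54 to 0.68) and had ratios of 0.40 and 0.43 in the groups at 5 to 10 and 10 to 20 of granule RNA. In the group under 5, its WT level of 81.7 CPM lay below that of WT Klf1 cells, so that no ratio is read there. Mpo, beside it, stood at 656 and 729 CPM (−0.15), and Klf1 cells held 120 CPM of Ctsg in cKO and 132 CPM in WT. Plac8, of early myeloid cells, stood at 1835 and 1456 CPM (0.33), and Cd34 at 96.7 and 110 CPM (−0.19). Ms4a3, which marks granulocyte-monocyte progenitors, stood at 31.0 and 22.2 CPM, under the 41.1 and 50.3 CPM of Klf1 cells, and is not read as expression.

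At the ends of the ranking, several genes came from single cells. Among the 10 lowest ratios were those of Nrg1, Pf4, Prss34, Mir99ahg, Prkg1, Mcpt8, Tbxas1, Fn1 and Plcb1. One WT cell held 59.1% of the Pf4 UMIs, a platelet chemokine, 1 held 46.3% of those of Prss34 and 1 held 40.6% of those of Mcpt8, both basophil and mast cell proteases. For Prkg1, 1 WT cell held 56.1% of the WT UMIs and 1 cKO cell 31.0% of the cKO UMIs. Without cells that held another lineage's markers, Pf4 had a ratio of 0.050, and without called doublets Mcpt8 had 0.047. Spread over more cells were Tbxas1, thromboxane synthase, at 24.6 CPM in cKO and 91.7 CPM in WT (−1.90, −2.14 to −1.67), and Plcb1, a phospholipase C, at 70.1 and 251 CPM (−1.84, −1.98 to −1.70). The 10 highest were Mt1, Isyna1, Ydjc, Fam136a, Mif, Mrps11, Noa1, Wdr18, Pop5 and Phb. Mt1, a metallothionein, stood at 83.1 and 35.8 CPM (1.21), and at 665 CPM in cKO and 401 CPM in WT Klf1 cells, so the part of free RNA in its monocytic level was not tested. Mif, macrophage migration inhibitory factor, stood at 718 and 377 CPM (0.93, 0.87 to 0.99) and was higher in cKO in each group by granule RNA (1.21, 0.85 and 0.76).

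The genes that set monocytic cells off most from the rest were lower in cKO. The 15 with the highest level over all other kept cells were Fn1, Pid1, Klf4, Ahnak, S100a4, Marchf1, Lsp1, Dock4, Ctss, Lgals3, Itgb7, Hdac9, S100a6, Ccr2 and Runx2, and all had ratios below 0, from −1.86 to −0.28. Pid1, an adaptor linked to insulin signalling, stood at 186 CPM in cKO and 446 CPM in WT monocytic cells and at 8.91 and 25.3 CPM in the other kept cells. Lgals3, galectin 3, stood at 376 and 516 CPM in monocytic cells and 20.3 and 46.7 CPM in the others. These genes were chosen by their levels in the same libraries, and their number below 0 is a description. Of all genes with at least 50 UMIs, 61.8% were below 0. The list medians by set of cells show the monocyte identity list at −0.48 in monocytic, −0.56 in granule-high, −0.36 in Mpo-high and −0.79 in Klf1 cells, where it counts low levels.

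**Figure D5:**
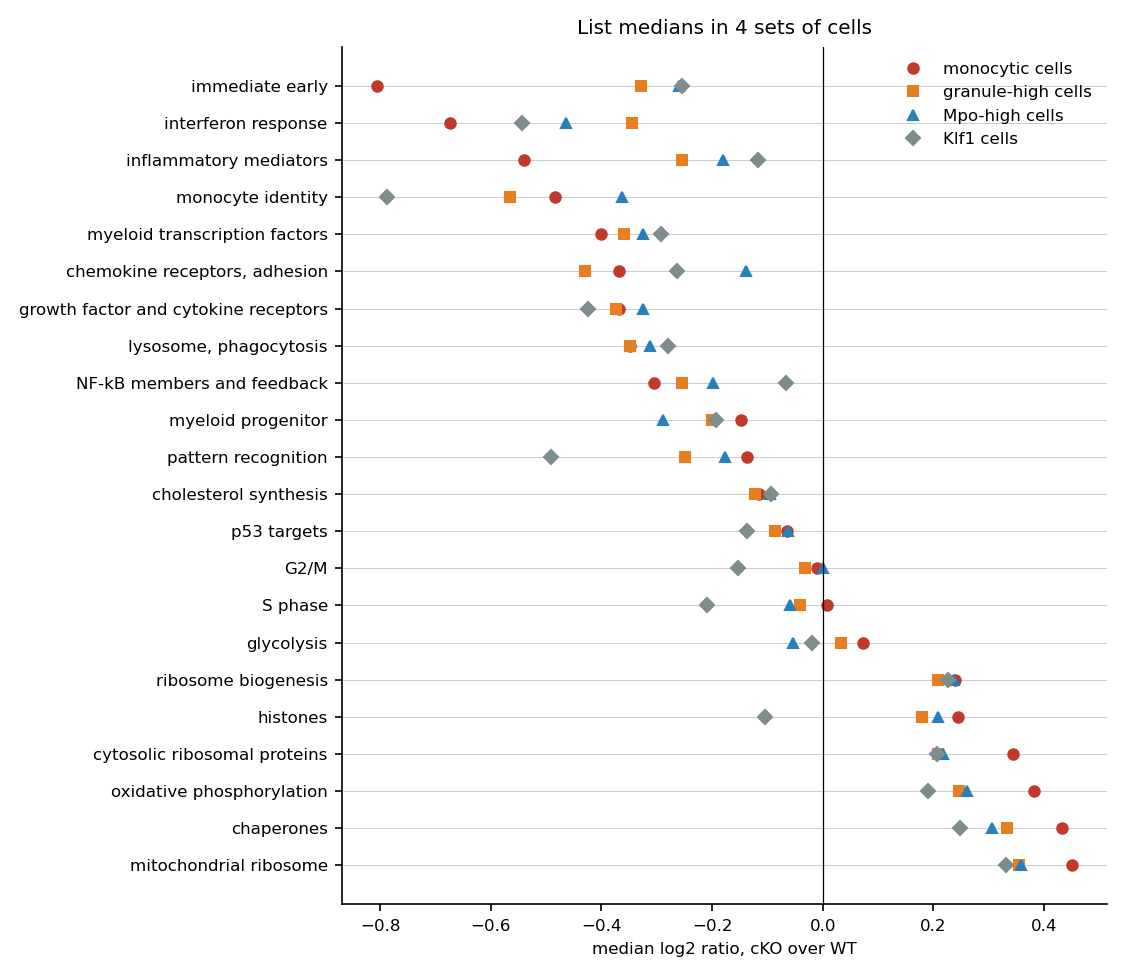
Median log2 ratio of cKO over WT (x axis) of 22 gene lists in monocytic, granule-high, Mpo-high and Klf1 cells. The lists for ribosomes, respiration and chaperones are above 0 in all 4 sets; the immediate early list is at −0.81 in monocytic cells and between −0.33 and −0.25 in the other 3.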

How the data were processed

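Droplet 3′ single-cell RNA sequencing was made of 1 cKO and 1 WT library. The values used are UMI counts per gene and barcode as deposited by the authors, all whole numbers. Cell Ranger 7.1.0 and mouse build mm39 were used, per the submitters' processing notes, and no source used here says how cells were called. UMIs were summed over cells and scaled by total UMIs, log2 ratios took 0.5 added to each sum, and intervals are exact binomial, Poisson or conditional binomial (Python 3.11.15, scipy 1.17.1, edgeR 4.0.16 for scaling). Scrublet ran in scanpy 1.11.5 with an expected share of 8%. Steps were tested on simulated data. Genes were named by rule: the 10 ratios at each end, the 2 highest and lowest of each list, all members of short lists and genes fixed by name. Spans are those of GENCODE vM21. The cells, the 28 gene lists and 12 marker lists were chosen with earlier results of these data known. Alternatives changed doublets, depth, scaling, limits, cell mix and floors. A few genes that the rule names are not reported here.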

Additional observations from a re-analysis of the deposited data

Results flagged for a closer look

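In 6 genes the ratio of cKO over WT ran one way in monocytic cells and the other way in a neighbouring set; none of these differences was tested. Chil3 had a log2 ratio of 2.05 in monocytic cells, with 224 UMIs in cKO and 81 in WT, and −2.40 in granule-high, −1.18 in Mpo-high and −1.21 in Klf1 cells; 1 cKO cell held 35.3% of its cKO UMIs. Col1a1 had 2.84 in monocytic and −1.07 in Klf1 cells, and Col1a2 3.13 and −0.69, with 76.3% and 66.5% of their cKO UMIs in 1 cell. Cox6a2 had 0.94 in monocytic and −0.59 in Klf1 cells, on 88 cKO and 69 WT UMIs. Jchain had 4.26 in monocytic cells, where 1 cKO cell held 91.5% of 1021 UMIs, against −1.59 in granule-high and −2.30 in Mpo-high cells. Ly6a had 0.75 in monocytic cells, on 39 cKO and 35 WT UMIs, and −2.35 in Mpo-high cells.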

How the results depend on the processing

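No paired analysis was possible because each genotype had 1 library. The share ratio lay under 1 in every alternative, at 0.559 and 0.591 after thinning to 4000 and 2000 UMIs. At 2000 it rested on 18 cKO and 31 WT cells and its interval, 0.311 to 1.09, took in 1. The share ratio of Ly6c2-bearing cells was 0.608 at 2000. Genes at least 1.5-fold higher and lower were 346 and 244 under TMM scaling, 302 and 256 under median-of-ratios scaling, and 4797 and 5973 with no floor. These scalings, in turn, gave list medians of −0.028 and −0.043 (pattern recognition), 0.54 and 0.53 (chaperones), 0.12 and 0.10 (S phase), 0.10 and 0.085 (G2/M), 0.56 and 0.55 (mitochondrial ribosome), 0.49 and 0.48 (oxidative phosphorylation), 0.45 and 0.44 (cytosolic ribosomal proteins) and 0.35 and 0.33 (ribosome biogenesis). With Elane and Prtn3 under 10 per 10000, medians were 0.028 (progenitor, reversed), 0.088 (S phase), 0.43 (oxidative phosphorylation) and 0.42 (cytosolic ribosomal proteins), and Ly6a had −0.012. Without called doublets, Ebf1 had −0.54, Mcpt8 0.047 and Mpo in WT monocytic over granule-high cells −2.85; without cells of other lineages' markers Ebf1 had −0.86 and Pf4 0.050. The cause was not tested. The thinning, TMM and floor alternatives were planned; the removal of cells with other lineages' markers, the reweighting by G2/M level and the equal weighing of granule groups were chosen after seeing the data. Of the alternative values of shares, counts and list medians, 362 stayed within their error (gene counts, within 1.5-fold), 29 moved and 1 reversed. Of those of single genes, 2707 stayed within their error, 328 moved and 5 reversed, and 100 of the moved ones came with Elane and Prtn3 under 10 per 10000. Some alternatives could hardly change a value, so these tallies are no measure of stability. The limit of 3000 UMIs kept 291 cKO and 447 WT monocytic cells and gave 304 of the unchanged single-gene values. Reweighting by Mpo-bearing and cycling cells gave another 304, and all cells met that cycling rule. Genes under 50 UMIs are too shallow here to compare and were left out of list medians.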
